A study of Mus musculus with 47 samples.

Results

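Developmental transcription factor genes outside the Hox clusters were followed in the mouse striatum. The 54 genes were chosen by name from the Pax, Gata, Tbx, Irx, Onecut, Fox, Lhx, Pitx, En, Alx, Barx and Twist families together with Six2, Six4, Six6 and Wt1, and all 54 were found among the 48795 genes of the count table, of which 33998 had a read in any library. RNA from the dissected striatum of 47 mice of a C57BL background, aged 6 months, was sequenced from stranded mRNA libraries of the TruSeq type. Q140 is a knock-in allele of Htt whose CAG repeat is expanded, used to model Huntington's disease in mice. Every carrier was heterozygous for it, per the labels, which do not say which stretch of Ccdc82 was altered. The groups were heterozygous Q140 (called Q140, 8 mice), Q140 Ccdc82+/- (8) and Q140 Ccdc82-/- (7), which together are called the 23 Q140 carriers, and Ccdc82+/- (8), Ccdc82-/- (8) and wild type (WT, 8), which together are the 24 mice without Q140. Each group held 4 females and 4 males, except Q140 Ccdc82-/- with 3 females and 4 males. The labels name no treatment, and each library was counted as a sample of its own. Where mice shared a litter or a day of dissection is not stated. The column headers carry a number that several mice of the same sex share, often across genotypes, and its meaning is not given. Each library also had a plate position. The groups lay unevenly over the plate columns, and the Q140 and WT groups had only some columns in common. The plate column was fitted only as an alternative.

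Genes of this kind specify organs and cell types in the embryo. In cells of other lineages they are commonly held silent by Polycomb complexes, which mark the chromatin of CpG-rich promoters, and adult medium spiny neurons (MSN), the principal neurons of the striatum, are one such lineage. Wt1 encodes a zinc finger protein of kidney and gonad development. Onecut1, also called hepatocyte nuclear factor 6, acts in liver, pancreas and retina.

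The libraries held 41.3 to 61.7 M counts each, with a median of 47.7 M. Ccdc82 itself, the targeted gene, lay between 7.27 and 9.99 CPM (counts per M of the scaled library total) in Q140 Ccdc82+/- and between 3.67 and 5.35 in Q140 Ccdc82-/-, against 10.1 to 12.8 in Q140 mice. It lay between 7.69 and 9.19 CPM in Ccdc82+/- and between 3.91 and 5.87 in Ccdc82-/-, against 10.6 to 12.9 in WT mice, so that Ccdc82-/- striatum still held reads of the gene. All 10 MSN identity markers were measured, and their summed level lay between 7712 and 9096 CPM in the 23 carriers and between 11237 and 12924 CPM in the 24 mice without Q140. These 2 ranges did not overlap, and in bulk tissue fewer cells of a type and less RNA per cell cannot be told apart. In 2 libraries, WT male 1 and Ccdc82-/- male 1, the choroid plexus markers stood apart from their groups.

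A feature that most of these genes shared, and that the choice by name did not use, was a CpG-rich promoter. RefSeq promoter windows of the GRCm38.p6 assembly, which run from 250 bases before to 50 bases after an annotated start, were at hand for 35 of the 54 genes, Wt1 not among them. Taking the highest value of each measure where a gene had several windows, 28 of 35 genes (80.0%) had a GC content of at least 50% and an observed over expected CG ratio of at least 0.6, against 36.1% of the 27025 genes with a window. The median ratio was 0.748 for the 35 genes and 0.415 for all genes. CG was searched as the letters CG, which read the same on both strands. Below, CG pairs are in capitals. Onecut1 is shown because it rose, Foxc1 because it fell, and Six2, a kidney progenitor factor, as a gene that stayed near silent, with 19 reads over the 23 carriers and 23 reads over the 24 mice without Q140.
Onecut1, chr9:74861671-74861970, plus strand: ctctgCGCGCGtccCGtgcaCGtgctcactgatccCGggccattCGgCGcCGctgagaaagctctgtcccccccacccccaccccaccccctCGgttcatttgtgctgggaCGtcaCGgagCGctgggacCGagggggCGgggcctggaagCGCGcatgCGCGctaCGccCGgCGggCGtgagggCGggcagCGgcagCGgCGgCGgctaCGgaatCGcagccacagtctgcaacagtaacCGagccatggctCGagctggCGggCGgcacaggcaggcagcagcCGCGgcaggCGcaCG
Foxc1, chr13:31806396-31806695, plus strand: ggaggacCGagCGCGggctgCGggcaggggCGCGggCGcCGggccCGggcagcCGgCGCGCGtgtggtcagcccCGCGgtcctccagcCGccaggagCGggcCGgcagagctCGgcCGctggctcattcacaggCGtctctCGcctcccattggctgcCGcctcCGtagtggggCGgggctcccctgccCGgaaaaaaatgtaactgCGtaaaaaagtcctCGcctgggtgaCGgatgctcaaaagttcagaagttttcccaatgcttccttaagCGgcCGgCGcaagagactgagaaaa
Six2, chr17:85688205-85688504, minus strand: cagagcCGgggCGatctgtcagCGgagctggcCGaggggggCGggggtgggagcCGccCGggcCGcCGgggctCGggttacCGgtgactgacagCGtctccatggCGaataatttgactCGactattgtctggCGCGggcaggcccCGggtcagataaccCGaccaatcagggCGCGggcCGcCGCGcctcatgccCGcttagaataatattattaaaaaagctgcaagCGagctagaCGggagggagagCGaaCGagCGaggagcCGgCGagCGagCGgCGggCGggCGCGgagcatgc
The windows hold 38 CG pairs in Onecut1, 32 in Foxc1 and 37 in Six2, with ratios of 0.951, 0.943 and 1.13. A high CG content was thus found in a gene that rose, in one that fell and in one that was near silent throughout.

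Most of the 54 genes were near silent, but not all of them. Levels are compared between genes as FPKM, the authors' deposited values per length and library total, averaged over the 47 libraries. By a mean under 0.1 FPKM, 42 of the 54 (77.8%) were near silent, against 59.6% of all genes in the table and 42.0% of genes with a read. Gata5 and Foxd3 had no read in any library. Gata1, Gata4 and Foxa2 had 1 read each and Six6 had 2, each in 1 library. The other 12 genes were above that line in the mean over all libraries. For Wt1 this came from the carriers, since it averaged 0.0120 FPKM in the mice without Q140, and the other 11 go against the label of silence.

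Onecut2, a neuronal paralogue of Onecut1, had the highest level at 5.64 FPKM. The next were Gata2, a factor of blood and endothelium as well as of some neurons, at 0.936 FPKM, and Tbx1, a pharyngeal arch factor, at 0.799 FPKM. Foxc1, a factor of mesenchyme and of the vessel wall, stood at 0.699 FPKM. Tbx2 at 0.676 and Tbx3 at 0.634 FPKM, both repressors of the heart and limb buds, followed. Pax6, a forebrain and eye factor, had 0.395 FPKM. En2, a midbrain and hindbrain factor, had 0.372, and Tbx18, which mural cells express, had 0.274. Irx1, Wt1 and Irx3 lay just above the line at 0.116, 0.112 and 0.112 FPKM, and Tbx4 just below it at 0.0956. Whole families were near silent: all 5 Lhx, 2 Pitx, 2 Alx and 2 Twist genes, the 3 sine oculis homologues Six2, Six4 and Six6, and Barx1 were under 0.1 FPKM, as were 7 of 8 Pax and 5 of 6 Gata genes.

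**Figure D1:**
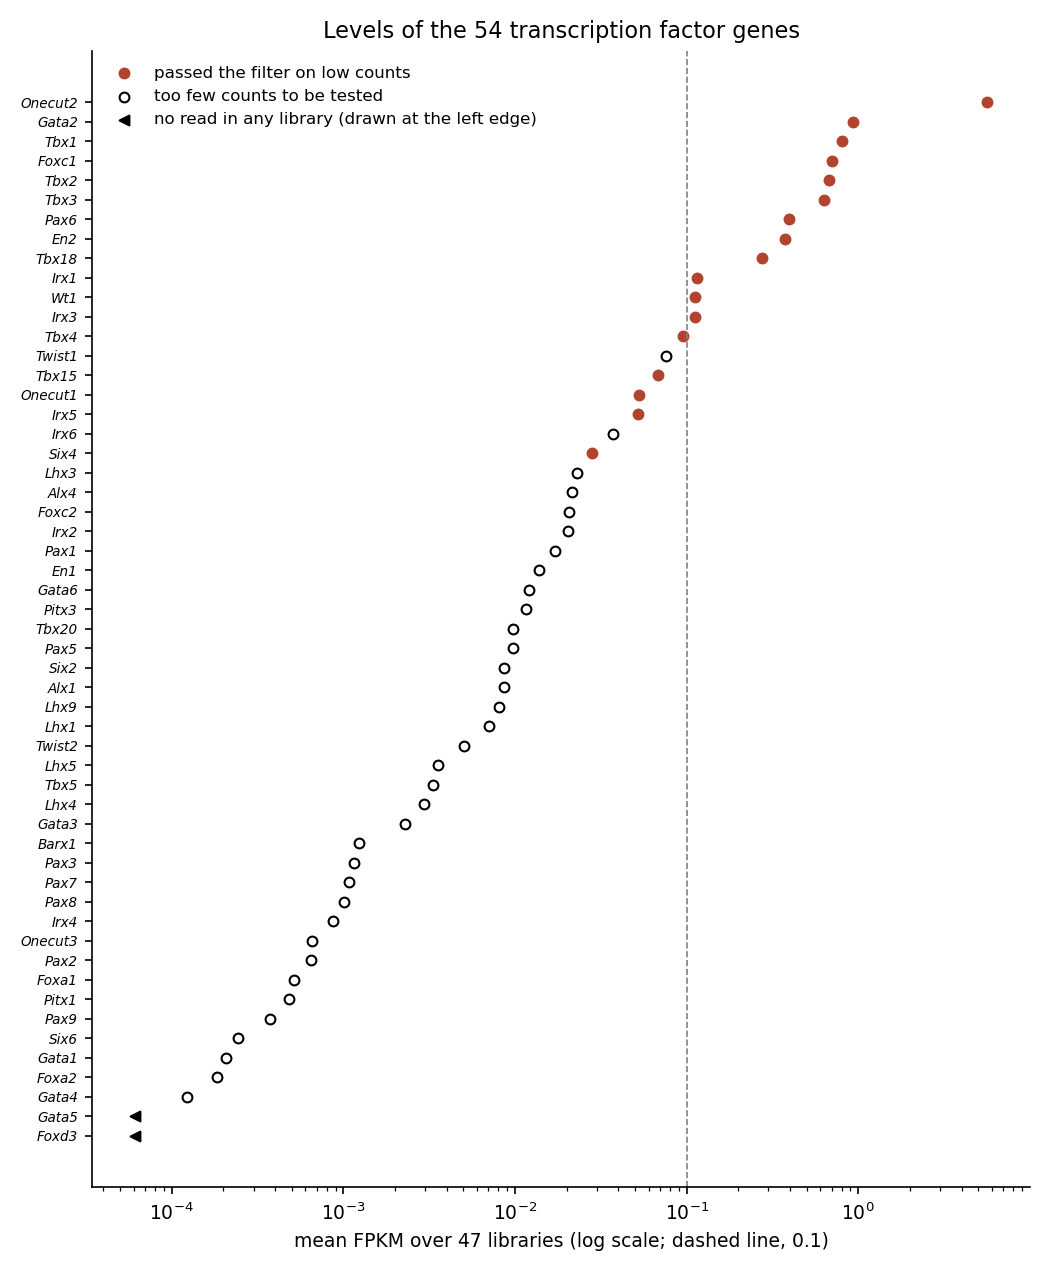
Mean FPKM of each of the 54 genes over 47 libraries on a log axis, with filled points for genes that passed the filter on low counts and open points for those that did not. The genes span from no read, in Gata5 and Foxd3, to 5.64 FPKM in Onecut2, and 42 of 54 lie left of the dashed line at 0.1 FPKM.

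Wt1 and Onecut1 were far higher in Q140 striatum, and none of the other 15 tested members moved by as much. Wt1 ranked as number 2 of 19193 tested genes by log2 fold change on each of the 3 Ccdc82 backgrounds, and Onecut1 as number 4 on the intact background and number 3 on both others. Both genes were already known to be higher in Q140 from an earlier look at these data, so these are values in detail and not independent evidence. Only 17 of the 54 genes passed the filter on low counts and were tested with edgeR's quasi-likelihood test, with p-values adjusted over 19193 genes and a threshold of 0.05. In Q140 against WT, 3 of the 17 passed, where 34.7% of all tested genes did (18.2% higher and 16.5% lower). Wt1 and Onecut1 rose and Pax6 fell.

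Wt1 lies on chromosome 2 from 105126529 to 105173616 of GRCm38, plus strand. It had 0.494 to 2.47 CPM in Q140 mice, with a median of 1.37, against 0.0231 to 0.190 CPM in WT mice, with a median of 0.0731. In counts these were 31 to 135 reads per library in Q140 and 1 to 9 in WT. Every Q140 library lay above every WT library. The log2 fold change was 3.72 ± 0.34 (SE), with an edgeR adjusted p of 1.59e-12.

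The same separation was seen on both Ccdc82 backgrounds. Wt1 had 0.460 to 1.99 CPM in Q140 Ccdc82+/- mice, with a median of 1.45, against 0 to 0.129 CPM in Ccdc82+/- mice, with a median of 0.0778. Its log2 fold change there was 4.35 ± 0.35 (SE, edgeR adjusted p = 3.70e-14). Wt1 had 0.453 to 2.14 CPM in Q140 Ccdc82-/- mice, with a median of 1.31, against 0.0222 to 0.160 CPM in Ccdc82-/- mice, with a median of 0.0526. Its log2 fold change there was 4.22 ± 0.37 (SE, edgeR adjusted p = 3.15e-13). In all, the 23 carriers held 1520 Wt1 reads and the 24 mice without Q140 held 85, and the lowest carrier stood at 0.453 CPM while the highest mouse without Q140 stood at 0.190 CPM. Per length, Wt1 averaged 0.217 FPKM in the carriers and 0.0120 FPKM in the mice without Q140, which is still far under the 5.64 FPKM of Onecut2.

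Onecut1 lies on chromosome 9 from 74861921 to 74891781 of GRCm38, plus strand. It had 0.0638 to 0.515 CPM in Q140 mice, with a median of 0.301, against 0 to 0.0811 CPM in WT mice, with a median of 0.0338. In counts these were 4 to 27 reads per library in Q140 and 0 to 4 in WT. One Q140 library, male 4, lay within the WT range, and the other 7 lay above it. The log2 fold change was 2.95 ± 0.51 (SE), with an edgeR adjusted p of 6.30e-06. Q140 male 4 also had the lowest Wt1 level of its group.

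Onecut1 had 0.153 to 0.796 CPM in Q140 Ccdc82+/- mice, with a median of 0.510, against 0 to 0.108 CPM in Ccdc82+/- mice, with a median of 0.0403, and these groups did not overlap. Its log2 fold change there was 3.38 ± 0.44 (SE, edgeR adjusted p = 1.55e-08). It had 0.142 to 0.833 CPM in Q140 Ccdc82-/- mice, with a median of 0.317, against 0 to 0.0924 CPM in Ccdc82-/- mice, with a median of 0.0419, again with no overlap. Its log2 fold change there was 2.87 ± 0.48 (SE, edgeR adjusted p = 3.65e-06). The highest library of that group, female 2 at 0.833 CPM, stood apart from the others, which reached 0.351 CPM. Without it the average Onecut1 effect over the 3 backgrounds was 2.95 log2 units, against 3.07 with it, a check that was added after the data had been seen. Per length, Onecut1 averaged 0.0973 FPKM in the carriers and 0.0102 FPKM in the mice without Q140.

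**Figure D2:**
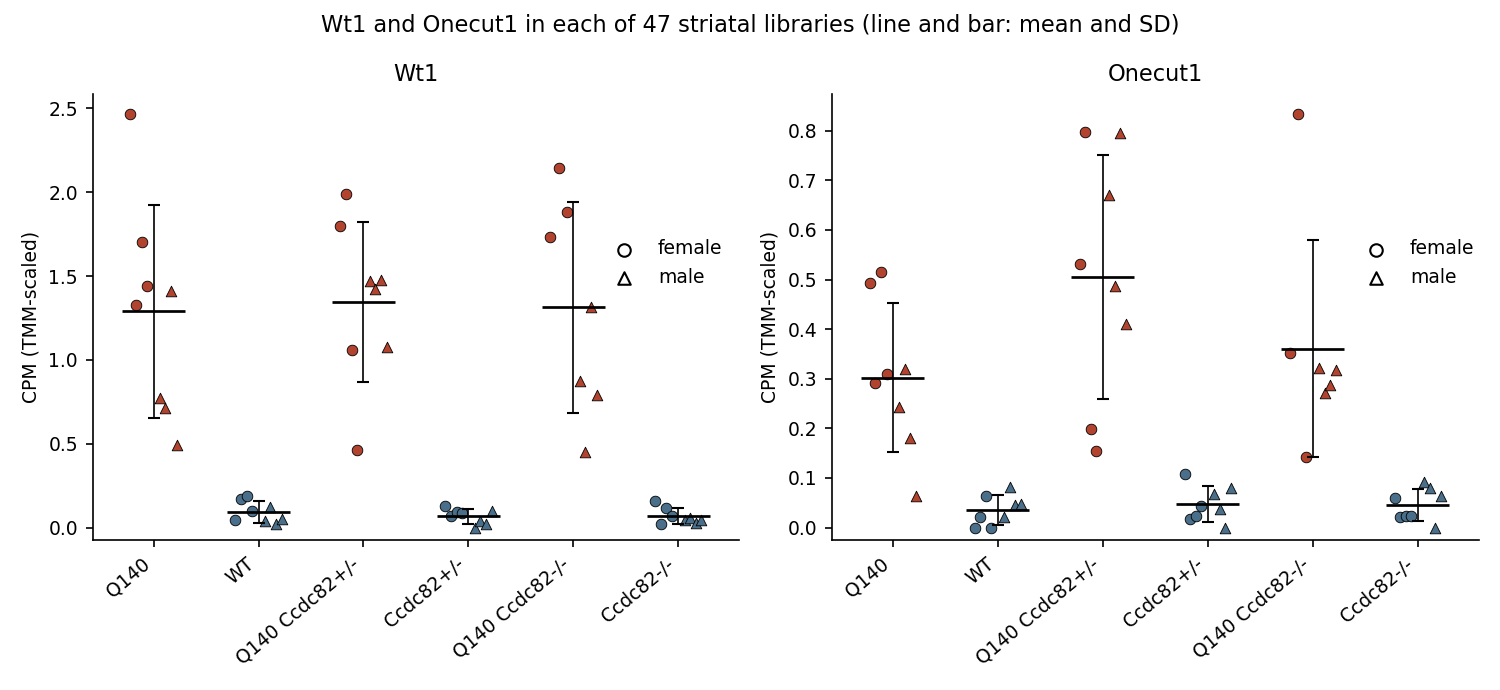
CPM of Wt1 (left) and Onecut1 (right) in each library, by group, with circles for females, triangles for males, and a line and bar for the mean and SD. All 23 carriers lie above all 24 mice without Q140 for Wt1, and for Onecut1 22 of 23 do, with Q140 male 4 at 0.0638 CPM among the mice without Q140.

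Both genes passed the filter through the carriers alone. The filter asks for about 10 reads at the median depth, or 0.210 CPM, in as many libraries as the smallest group holds. Wt1 reached that level in 23 of 23 carriers and 0 of 24 mice without Q140, and Onecut1 in 18 of 23 and 0 of 24. Genes that enter in this way had to differ, so their place among the tested genes is a description. With a filter blind to the groups, a mean of at least 1 count, the average Q140 effect was 4.10 log2 units for Wt1 and 3.07 for Onecut1, as with the main filter.

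Genes beside Wt1 and Onecut1 were looked at after the values of both had been seen. Wt1os, the antisense gene whose annotation begins 18 bases from Wt1 on the opposite strand, had no read in any library. Gm20649, which overlaps Onecut1 on the same strand, had none either. Of the 10 tested genes within 500 kb of Wt1, 2 were higher and 2 lower in Q140 than in WT, with log2 fold changes from -0.26 to 0.24. Tcp11l1 (0.24 ± 0.07, SE) and Qser1 (0.12 ± 0.03) rose, and Rcn1 (-0.18 ± 0.05) and Pax6 (-0.18 ± 0.07) fell. Of the 6 tested genes within 500 kb of Onecut1, none rose and 5 fell. Among them Arpp19, a striatal cAMP-regulated phosphoprotein, fell by 0.61 ± 0.03 log2 units and Myo5c, an unconventional myosin, fell by 0.96 ± 0.13 (SE, edgeR adjusted p = 4.48e-22 and 3.49e-08). Of all tested genes, 18.2% rose and 16.5% fell in Q140 against WT. Wt1 and Onecut1 were looked at for their high rank among all tested genes, so their lead over these neighbours is no finding. A link between the neighbours and the 2 rises was not tested.

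Averaged over the 3 Ccdc82 backgrounds, 5 of the 17 tested genes passed, where 54.3% of all tested genes did (28.8% higher and 25.5% lower). Wt1 rose by 4.10 ± 0.20 and Onecut1 by 3.07 ± 0.27 log2 units (SE, edgeR adjusted p = 1.63e-22 and 1.04e-13). Foxc1, Gata2 and Pax6 fell, each by under 0.2 log2 units. The median over the 17 genes was -0.06 log2 units, beside 0.00433 over all tested genes. The share of members that passed was below the share of all tested genes that did, and the difference of the shares was not tested.

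Foxc1 had 2.07 to 3.19 CPM in the 23 carriers, with a median of 2.57, against 1.99 to 3.65 CPM in the 24 mice without Q140, with a median of 2.95. Its average Q140 effect was -0.19 ± 0.06 log2 units (SE, edgeR adjusted p = 0.00764). Gata2 had 3.82 to 6.17 CPM in the carriers, with a median of 4.85, against 3.89 to 6.19 CPM in the mice without Q140, with a median of 5.33. Its average effect was -0.16 ± 0.05 (SE, edgeR adjusted p = 0.00659). Pax6 had 3.52 to 5.20 CPM in the carriers, with a median of 4.52, against 3.78 to 5.798 CPM in the mice without Q140, with a median of 4.77. Its average effect was -0.13 ± 0.04 (SE, edgeR adjusted p = 0.00621). The ranges of carriers and other mice overlapped almost fully for all 3 genes. Scaled by total counts alone, none of these 3 falls passed (-0.12 for Foxc1, -0.10 for Gata2 and -0.07 for Pax6, edgeR adjusted p = 0.0763, 0.0966 and 0.178). That scaling turned the split of all calls to 74.5% higher, against 53.0% higher with the main scaling.

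Markers of the vessel wall moved the same way as Foxc1 and Gata2. All 8 endothelial markers and 8 of 10 mural cell markers fell in the average Q140 effect, with median log2 fold changes of -0.17 and -0.13. Of all tested genes, 25.5% fell. The summed endothelial markers ranged from 197.1 to 226.6 CPM in the carriers and from 215.2 to 258.7 CPM in the mice without Q140. The summed mural markers ranged from 221.1 to 262.5 CPM in the carriers and from 242.7 to 291.0 CPM in the mice without Q140, and no marker of either list was at 0. Tbx18, the member that mural cells express, had an average effect of -0.04 ± 0.07 log2 units (SE, edgeR adjusted p = 0.617) and did not pass. The part of the vessel markers in the falls of Foxc1 and Gata2 was not tested.

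By single background the small falls were called unevenly. In Q140 Ccdc82+/- against Ccdc82+/-, 4 of 17 genes passed, where 35% of all tested genes did (18.4% higher and 16.7% lower): Wt1 and Onecut1 rose, and Foxc1 (-0.28 ± 0.10) and Gata2 (-0.22 ± 0.09) fell (SE, edgeR adjusted p = 0.0290 and 0.0452). Scaled by total counts alone, 4 of 17 passed there and none of them fell: Foxc1 (-0.21) and Gata2 (-0.15) were lost (edgeR adjusted p = 0.094 and 0.166), and Irx5 and Onecut2 passed as higher, beside Wt1 and Onecut1. That scaling made 77.1% of all calls in this comparison higher, against 52.4% with the main scaling. In Q140 Ccdc82-/- against Ccdc82-/-, 2 of 17 passed, Wt1 and Onecut1, where 33.2% of all tested genes did (17.5% higher and 15.7% lower). In Q140 against WT, Pax6 had 3.78 to 4.82 CPM in Q140 and 4.39 to 5.69 CPM in WT mice, a log2 fold change of -0.18 ± 0.07 (SE, edgeR adjusted p = 0.0436). Foxc1 stood at -0.10 ± 0.10 and Gata2 at -0.10 ± 0.09 there (edgeR adjusted p = 0.478 and 0.396). With total counts alone the share of all calls that were higher was 73.5% in Q140 against WT and 76.8% in Q140 Ccdc82-/- against Ccdc82-/-, against 52.4% and 52.8% with the main scaling, and the fall of Pax6 did not pass (edgeR adjusted p = 0.184). These single-background calls of Foxc1, Gata2 and Pax6 lay near the threshold, and no member's effect was shown to differ between backgrounds.

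The 15 tested genes other than Wt1 and Onecut1 had average Q140 effects between -0.19 and 0.29 log2 units, 5 of them above 0 and 10 below. Their 95% intervals reached from -0.44, for Irx3, to 0.73, for Irx5, both homeobox genes of neural and heart patterning. Onecut2, the paralogue of Onecut1, had 60.8 to 99.8 CPM in the carriers, with a median of 75.3, against 57.1 to 99.5 CPM in the mice without Q140, with a median of 72.2. Its average effect was 0.06 ± 0.06 (SE, edgeR adjusted p = 0.427), with a 95% interval from -0.06 to 0.17. Onecut3 had 7 reads in 6 libraries. Tbx1 averaged 1.37 ± 0.324 CPM (SD, n = 23) in the carriers and 1.48 ± 0.292 CPM (SD, n = 24) in the mice without Q140. Tbx2 averaged 2.37 ± 0.261 CPM in the carriers and 2.53 ± 0.347 CPM in the mice without Q140, and Tbx3 averaged 3.96 ± 0.694 CPM in the carriers and 4.44 ± 1.021 CPM in the mice without Q140. In the main fit the average effects of Tbx1, Tbx2 and Tbx3 of -0.12 ± 0.08, -0.10 ± 0.06 and -0.15 ± 0.07 log2 units did not pass (SE, edgeR adjusted p = 0.212, 0.126 and 0.0889). Tbx3 passed as lower with the plate column and in females alone. Tbx3 overlaps Tbx3os1 on the opposite strand, which had 2429 reads in the carriers and 2313 in the mice without Q140. Whether the counting used strand is not given in the sources used here, so reads of such a pair may not have been told apart.

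**Figure D3:**
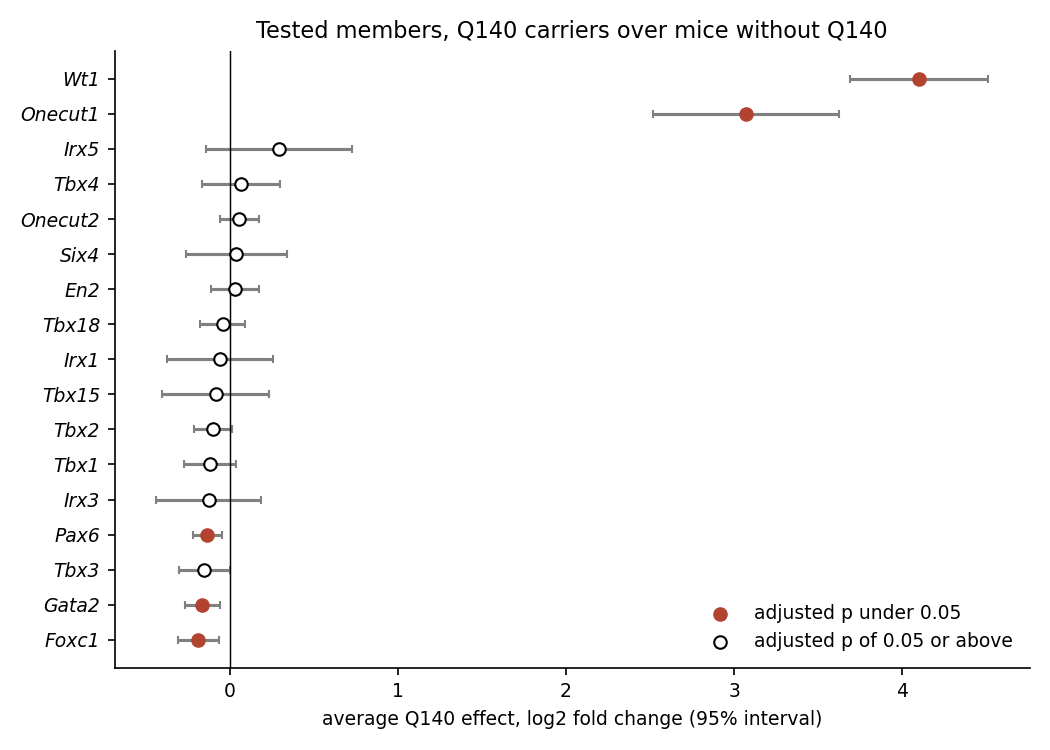
Average Q140 effect over the 3 Ccdc82 backgrounds, as log2 fold change of carriers over mice without Q140 with its 95% interval, for the 17 tested genes. Wt1 at 4.10 and Onecut1 at 3.07 stand far right, and the other 15 lie between -0.19 and 0.29, with Pax6, Gata2 and Foxc1 past the threshold (filled points).

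Ccdc82 genotype moved none of the tested genes past the threshold. In Ccdc82+/- against WT, Ccdc82-/- against WT, Q140 Ccdc82+/- against Q140 and Q140 Ccdc82-/- against Q140, 0 of 17 passed in edgeR and in DESeq2, where 0.00521% of all tested genes did, which is Ccdc82 alone. At an unadjusted p under 0.05 these counts were 0, 0, 5 and 0 of 17, and 628, 804, 1101 and 712 of all 19193 genes. The 5, in Q140 Ccdc82+/- against Q140, were Onecut1, Onecut2 and Tbx4, which were higher, and Tbx1 and Tbx3, which were lower. Tbx1 had the smallest p of them, at -0.52 ± 0.13 log2 units (SE, edgeR unadjusted p = 0.00032, adjusted p = 0.834). Wt1 averaged 1.34 ± 0.478 CPM in Q140 Ccdc82+/- (SD, n = 8), 1.31 ± 0.632 in Q140 Ccdc82-/- (SD, n = 7) and 1.29 ± 0.635 in Q140 mice (SD, n = 8). Against Q140, its log2 fold change was 0.16 ± 0.23 in Q140 Ccdc82+/- and 0.07 ± 0.23 in Q140 Ccdc82-/- mice (SE), with 95% intervals from -0.30 to 0.61 and from -0.40 to 0.54. Onecut1 averaged 0.506 ± 0.246 CPM in Q140 Ccdc82+/-, 0.361 ± 0.219 in Q140 Ccdc82-/- and 0.302 ± 0.150 in Q140 mice. Its log2 fold change was 0.78 ± 0.32 in Q140 Ccdc82+/- against Q140 (SE, edgeR adjusted p = 0.859) and 0.28 ± 0.34 in Q140 Ccdc82-/- against Q140 (edgeR adjusted p = 0.9997). Neither interaction of Q140 with Ccdc82 genotype passed for any of the 17 genes, nor for any of all 19193 in edgeR (0%), while DESeq2 called 1 gene outside the 17 on the Ccdc82+/- background. At an unadjusted p under 0.05 edgeR gave 1 and 0 of the 17, and 1011 and 826 of all genes. The interaction of Wt1 with Ccdc82+/- was 0.63 ± 0.60 and with Ccdc82-/- 0.50 ± 0.61 (SE), with 95% intervals from -0.58 to 1.84 and from -0.72 to 1.72. Differences within those intervals were not excluded.

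Females and males both had high Wt1 with Q140. Wt1 had 1.32 to 2.47 CPM in the 4 Q140 females and 0.494 to 1.41 CPM in the 4 Q140 males, against 0.0448 to 0.190 CPM in WT females and 0.0231 to 0.122 CPM in WT males. In Q140 Ccdc82-/- mice the 3 females had 1.73 to 2.14 CPM and the 4 males 0.453 to 1.31 CPM. In Q140 Ccdc82+/- mice the sexes overlapped, at 0.460 to 1.99 CPM in the 4 females and 1.07 to 1.48 CPM in the 4 males. The average Q140 effect in females minus that in males was -0.35 ± 0.46 log2 units for Wt1 and 0.998 ± 0.63 for Onecut1 (SE). It passed for none of the 17 genes nor for any of all 19193 in edgeR (0%), a test added after the data had been seen. At an unadjusted p under 0.05 it gave 594 of all genes and 1 of the 17, Tbx3 at -0.35 ± 0.14 (SE, edgeR adjusted p = 0.9999). Fitted by sex, the Onecut1 difference between Q140 and WT was 4.03 log2 units in females and 1.93 in males (edgeR adjusted p = 0.00064 and 0.0152). WT females held 0 to 0.0634 CPM of Onecut1, so the female value rests on a level near 0. Onecut1 averaged 0.403 CPM in Q140 females and 0.202 in males. It averaged 0.420 CPM in Q140 Ccdc82+/- females and 0.591 in males, and 0.442 in Q140 Ccdc82-/- females and 0.300 in males.

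Among the 23 carriers, libraries with more Wt1 tended to have more Onecut1, a relation computed after the levels had been seen. On log2(CPM + 0.05), Pearson's r was 0.614 (permutation p = 0.00172, adjusted over 3 relations p = 0.00516) and Spearman's rho was 0.635 (permutation p = 0.00129). Without the 2 libraries farthest from the median of Wt1, r was 0.602. It was 0.653 in the 11 females and 0.634 in the 12 males. By group, r was 0.759 in Q140, 0.864 in Q140 Ccdc82+/- and 0.246 in Q140 Ccdc82-/- mice. No value was computed within the plate columns of the libraries.

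The level of MSN identity genes ran against Onecut1 across the same carriers. With the mean log2 level of the 10 MSN markers, r was -0.502 for Onecut1 (permutation p = 0.0142, adjusted p = 0.0213; Spearman's rho -0.539) and -0.301 for Wt1 (permutation p = 0.162, adjusted p = 0.162; rho -0.325). Without the 2 farthest libraries these were -0.567 and -0.540. For Onecut1 r was -0.305 in females and -0.647 in males, and by group -0.617 in Q140, -0.165 in Q140 Ccdc82+/- and -0.835 in Q140 Ccdc82-/- mice. All 10 MSN markers fell in each Q140 comparison, where 15.7% to 16.7% of all tested genes fell on single backgrounds and 25.5% on average. The part of the MSN fall in the levels of Wt1 and Onecut1 was not tested.

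**Figure D4:**
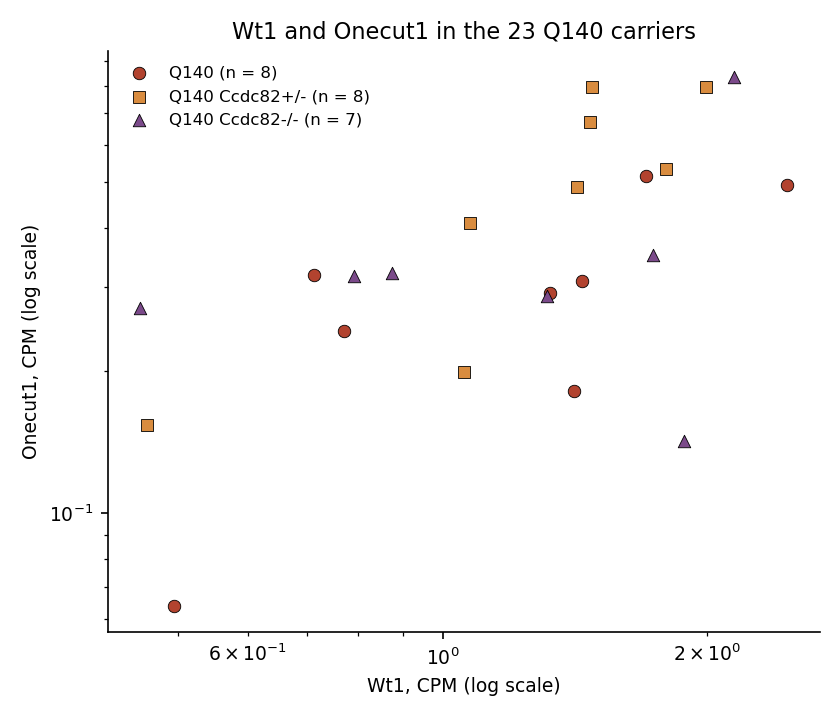
Onecut1 CPM against Wt1 CPM in the 23 Q140 carriers, both on log axes, with a symbol for each group. Points rise together over most of the range (Pearson's r = 0.614), with r of 0.246 among the 7 Q140 Ccdc82-/- libraries.

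The 37 genes that missed the filter showed no common shift. Their reads summed to 1366 in the 23 carriers and 1271 in the 24 mice without Q140, and their summed CPM ranged from 0.799 to 1.76 in the carriers and from 0.786 to 1.47 in the mice without Q140, with medians of 1.13 in the carriers and 1.15 in the mice without Q140. Of the 37, mean CPM was higher in carriers for 19 and lower for 16, and 2 had no read. In 21 of them fewer than 24 of the 47 libraries held a read. Pax5, Lhx3 and Alx4 had a read in all 47.

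Alx4, a craniofacial homeobox gene, had the most reads of these genes, 171 in the carriers and 169 in the mice without Q140, which averaged 0.149 and 0.154 CPM. It overlaps Ext2 on the opposite strand, which had 45984 reads in the carriers and 51127 in the mice without Q140. Irx6 had 142 reads in the carriers and 144 in the mice without Q140, and Twist1, a mesoderm factor, 141 in the carriers and 136 in the mice without Q140. Pax5, the B cell and midbrain factor, had 115 reads in the carriers and 80 in the mice without Q140, with 0.0188 to 0.242 CPM in the carriers and 0.0210 to 0.172 CPM in the mice without Q140. Pax5 overlaps Gm12462 and 4930517J16Rik on the opposite strand, which had 154 and 95 reads in the carriers and 78 and 56 in the mice without Q140, and their part in the Pax5 reads was not tested. The carriers and the other mice overlapped in all 4 genes.

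With no filter, 35 of these 37 genes could be fitted among 33998 genes, and 2 passed in the average Q140 effect, where 30.7% of all genes did, and the same 2 in Q140 Ccdc82-/- against Ccdc82-/-, where 17.2% did. Both are named here after their values had been seen. Tbx5, a heart and forelimb factor, had 29 reads in 14 of 23 carriers and 6 reads in 3 of 24 mice without Q140, a mean of 0.0252 and 0.00584 CPM (edgeR adjusted p = 0.00305 for the average effect). Lhx4, a pituitary and motor neuron factor, had 28 reads in 13 of 23 carriers and 11 reads in 9 of 24 mice without Q140, a mean of 0.0240 and 0.00955 CPM (edgeR adjusted p = 0.0103). In the Ccdc82-/- group neither gene had a read, and no fold is given for that reason. Tbx5 had 7 reads in 5 of 8 Q140 mice and 3 reads in 1 of 8 WT mice, and Lhx4 had 8 reads in 5 of 8 Q140 mice and 3 reads in 3 of 8 WT mice, and neither passed there (edgeR adjusted p = 0.620 and 0.503). At 1 to 4 reads per library these levels are close to what a single read is worth.

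**Figure D5:**
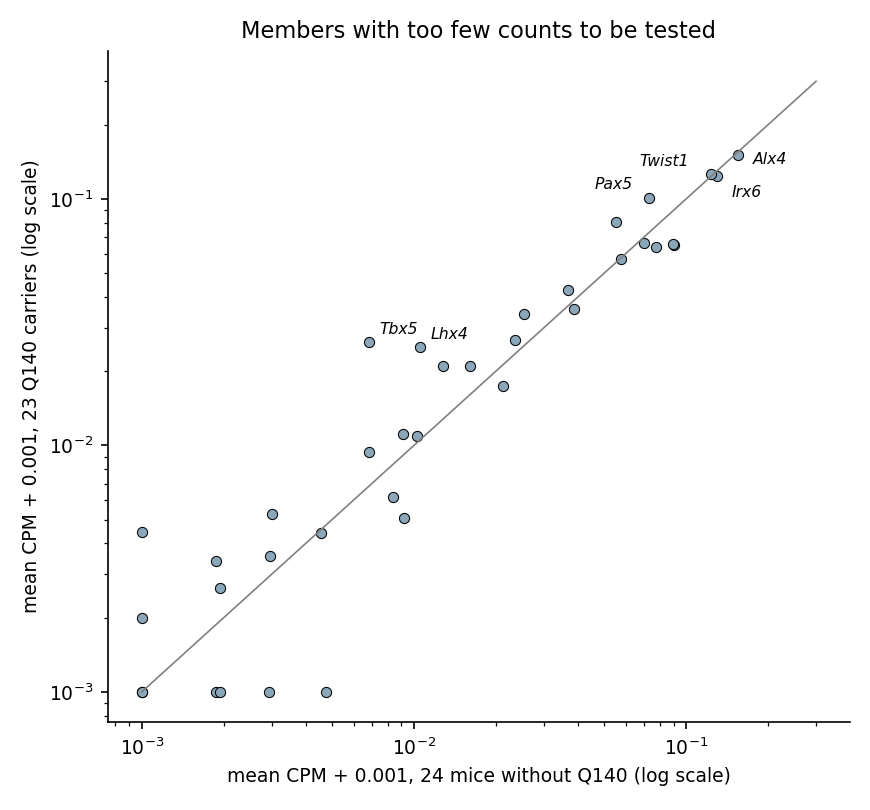
Mean CPM (plus 0.001, log axes) of the 37 genes that missed the filter, in the 23 Q140 carriers (vertical) against the 24 mice without Q140 (horizontal), with a line of equality. Most points lie along the line, with 19 genes higher and 16 lower in the carriers, and Tbx5 and Lhx4 lie above it.

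Relatives of these genes and the genes of the Polycomb machinery were counted in the same fit. Of 50 paralogues from the same families, 32 were tested, and 8 rose and 11 fell in the average Q140 effect, with a median of -0.03 log2 units. In Q140 against WT 6 rose and 6 fell. Of all tested genes, 28.8% rose and 25.5% fell in the average effect, and 18.2% rose and 16.5% fell in Q140 against WT. A difference of the paralogues from these shares was not tested. Foxo1 averaged 135.5 CPM in Q140 and 182.3 CPM in WT mice (-0.43 ± 0.04 log2 units, SE), and Foxp1, an MSN factor that is also on the MSN list, averaged 369.8 CPM in Q140 and 473.7 CPM in WT mice (-0.36 ± 0.04). Isl1, a factor of cholinergic and direct pathway neurons, averaged 23.7 CPM in Q140 and 18.4 CPM in WT mice (0.37 ± 0.04). All 3 passed, with edgeR adjusted p-values of at most 9.25e-11.

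All 33 Polycomb genes were tested, and 14 rose and 8 fell in the average Q140 effect, with a median of -0.02 log2 units. In Q140 against WT, 9 rose and 6 fell. The shares of all tested genes were 28.8% higher and 25.5% lower on average, and 18.2% and 16.5% in Q140 against WT. A difference from them was not tested. Cbx8, a chromobox subunit of Polycomb repressive complex 1, averaged 17.6 CPM in Q140 and 11.1 CPM in WT mice (0.67 ± 0.07 log2 units, SE, edgeR adjusted p = 5.63e-11). Cbx7, a further paralogue, averaged 84.8 CPM in Q140 and 93.8 CPM in WT mice (-0.15 ± 0.03), and Bap1, the deubiquitinase of histone H2A, 115.5 CPM in Q140 and 131.4 CPM in WT mice (-0.19 ± 0.02), with edgeR adjusted p-values of 1.86e-05 and 2.70e-09. Genes of the Polycomb list thus moved in both directions.

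Markers of other cells that a striatal dissection can carry along were counted as well. Beside them, 28.8% of all tested genes rose and 25.5% fell in the average Q140 effect. In the average Q140 effect 1 of 11 tested choroid plexus genes rose and 2 fell, 0 of 7 ependymal genes passed, 4 of 13 meningeal and fibroblast genes fell and 1 of 6 blood genes fell. Of the neuronal lists, 3 of 9 cortical genes rose and 2 fell (summed level 142.95 to 172.1 CPM in the carriers and 123.2 to 145.5 CPM in the mice without Q140), 3 of 10 septal, pallidal and thalamic genes rose and 2 fell, 1 of 5 midbrain dopamine genes rose and 2 fell, 0 of 2 tested hypothalamic genes passed, and 1 of 7 cholinergic genes rose and 4 fell. Without the 2 libraries whose choroid plexus markers stood apart, the average Q140 effect was 4.07 log2 units for Wt1 and 3.11 for Onecut1. The part of the other lists in these rises was not tested.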

How the data were processed

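Per the labels' protocols, striatal RNA was extracted with a column kit and made into stranded libraries. The deposited count table holds raw read counts per gene and library, and the authors' FPKM are these counts divided by gene length and library total: each deposited FPKM equalled the count over total and length within a relative deviation of 2.5e-13. Tools listed in the submitters' processing notes are HTSeq 0.12.3, STAR 2.7.5c and SAMtools 1.10, and the builds GRCm38 and mm10. The annotation release is not given in the sources used here; positions are those of GENCODE M21, which matched chromosome and strand of all 54 genes.

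Counts were filtered with filterByExpr, scaled by TMM and fitted with edgeR 4.0.16 (R 4.3.3, 1 coefficient per group and a sex term, all 47 libraries), with Benjamini-Hochberg adjustment over 19193 genes and a threshold of 0.05. CPM are counts per M of TMM-scaled library totals. SE are of the log2 fold change, and SD are between libraries. At 47.7 M counts, 0.210 CPM is about 10 reads, and without molecular identifiers reads are not independent molecules. The labels number the mice but do not say whether litters or batches are shared. The number that mice share in the column headers was neither tested nor modelled. Correlations used 100000 permutations, two-sided. The code was tested on simulated counts.

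The members, gene lists and tests were chosen with earlier results of these data known. Values are given for members past the threshold in any of 10 comparisons, for the 6 with the highest FPKM, for the 4 untested ones with most reads, and for up to 4 genes per list with the smallest p in Q140 against WT, of which some are not reported here. Alternatives were RLE factors, total counts, DESeq2 1.42.0, 2 other filters, no sex term, a replicate block, the plate column, only the groups compared, each sex alone, and 2 sets of libraries left out.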

Additional observations from a re-analysis of the deposited data

Results flagged for a closer look

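In 13 genes and 6 groups, 78 sets of 7 or 8 libraries were searched for a library far from the rest of its group, and 6 were found. For normally distributed values chance alone gives about 1 in 20, a share that low counts need not keep. Onecut1 stood at 0.833 CPM in Q140 Ccdc82-/- female 2, against 0.142 to 0.351 CPM in the other 6 mice. Twist1 stood at 0.527 CPM in Q140 Ccdc82-/- female 1, against 0.0792 to 0.252 CPM in the others. Alx4 stood at 0.381 CPM in Ccdc82+/- male 4, against 0.0174 to 0.134 CPM, and at 0.0788 CPM in Ccdc82-/- male 2, against 0.156 to 0.215 CPM. Irx6 stood at 0.283 CPM in Ccdc82+/- male 2, against 0.0860 to 0.159 CPM. Gata2 stood at 4.08 CPM in Ccdc82-/- male 2, against 5.20 to 6.04 CPM. No cause was tested for any of them.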

How the results depend on the processing

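The rises of Wt1 and Onecut1 kept their direction and passed under every alternative in which they could be fitted: the average effect ranged from 3.95 to 4.30 log2 units for Wt1 and from 2.59 to 3.59 for Onecut1, which missed the filter when only the compared groups were fitted. In Q140 against WT, Onecut1 stood at 4.03 in females alone, where WT held 0 to 0.0634 CPM, and 1.93 in males alone, against 2.95. The small falls did not hold as well. Of the 17 genes, those passing in the average Q140 effect numbered 2 with total counts alone and 3 in males alone, against 5. With the plate column 6 passed, and in females alone 4, and in both Tbx3 was among those lower. In Q140 Ccdc82+/- against Ccdc82+/- the passing genes numbered 2 with the plate column, 2 in females alone and 2 in males alone, against 4, and with total counts alone they again numbered 4, but all 4 higher. Tbx1 passed there as lower with DESeq2, when 5 genes passed, and with only the compared groups, when 3 did. In Q140 Ccdc82-/- against Ccdc82-/- the passing genes numbered 4 with no filter and 1 with only the compared groups, where Onecut1 was not tested, against 2. Foxc1 in the average effect stayed below 0 throughout, from -0.19 to -0.12, with adjusted p-values from 0.0042 to 0.095. The cause of the lost calls was not tested, although each sex alone holds fewer mice. Of the 54 genes, 37 were near silent with the line at 0.05 FPKM and 45 with it at 0.2, against 42 at 0.1. In 115 same-sex pairs with the same replicate number, deviations from the group and sex mean correlated at a median of -0.004. These correlations ranged from -0.43 to 0.46, and the median for other pairs was -0.006. Replicate numbers follow the order of the column headers within each group and sex. They therefore cannot show whether mice shared a litter or a day. With the replicate block, 2, 4, 2 and 5 genes passed in the 4 Q140 comparisons, against 3, 4, 2 and 5, and 0 in the other 6; Pax6 missed in Q140 against WT (adjusted p = 0.0555), and in Q140 Ccdc82+/- against Ccdc82+/- a higher Onecut2 passed in place of Gata2. Depth limits the 37 untested genes, of which none had more than 340 reads in all libraries.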
